A study of Mus musculus with 12 samples.

Results

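The 10 genes of this account serve brain microglia and the complement cascade. C1qa, C1qb, C1qc, C3, Cx3cr1, P2ry12, Tmem119, Csf1r, Trem2 and Tyrobp were followed in the forebrain of juvenile and adult Shank3-mutant mice. They were chosen by symbol from the 19268 genes of the deposited table, and all 10 were present. The mice were C57BL/6J males, either juvenile at postnatal day 25 (P25) or adult at postnatal day 60 (P60), and the tissue was forebrain from which the olfactory bulb had been removed. Knock-out (KO) mice lacked internal exons of both copies of Shank3, the gene of a scaffold protein at excitatory synapses, and wild-type (WT) mice were the controls. Each of the 4 groups (P25-WT, P25-KO, P60-WT and P60-KO) had 3 libraries from 3 mice, and the litter of each mouse is not given.

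Microglia are the resident macrophages of the brain. They survive on signals through Csf1r, sense neurons through Cx3cr1 and the purine receptor P2ry12, and carry the surface protein Tmem119. Trem2 binds lipids and lipoproteins and signals through the adaptor Tyrobp. Microglia are also the main brain source of C1q, a complex of the C1qa, C1qb and C1qc chains that starts the classical complement pathway. C1q leads through C4 to cleavage of C3, and fragments of C3 mark synapses for removal by microglia during postnatal development. Border macrophages of the meninges and vessels share many of these transcripts.

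The values are normalized counts, that is, read estimates that the authors had scaled between libraries, and the largest sum over genes was 1.06 times the smallest among the 12 libraries, with all 6 sums at P25 above all 6 at P60. Shank3 lay between 4535 and 5729 normalized counts in the KO libraries and between 8936 and 11680 in the WT libraries. The 12 listed microglial markers, 5 of which are among the 10 genes, were all above 0 in every group, and their sum was 8109 to 10980. Of 9 listed blood leukocyte markers 4 were in the table, and their sum was 17.6 to 44.6. P25-WT replicate 2 stood apart in the relation of its values to transcript length (Spearman's rho of its log2 deviations from the mean of its age with exon length across genes, -0.349). The other 11 libraries lay between -0.205 and 0.281.

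The promoters of C1qb, C1qc, Trem2 and C3 are shown. The first 3 genes were positively correlated across libraries, and C3 had a median correlation near 0 with the others. P2ry12 and Cx3cr1 were also positively correlated with the first 3, and their promoters are not shown. Of the 10 genes, 6 had an entry in the RefSeq promoter table (GRCm38.p6), and C1qa, Tmem119, Tyrobp and Csf1r had none that was used. C1qb (chr4:136886201-136886450) and C1qc (chr4:136893066-136893164) lie on the minus strand of chromosome 4, Trem2 (chr17:48346151-48346400) on the plus strand of chromosome 17 and C3 (chr17:57228137-57228386) on the minus strand of chromosome 17. Each sequence reads 5′ to 3′ up to the outermost start site in RefSeq or GENCODE M21. Capitals mark GAGGAA or AGGAAGT on either strand, letters of sites bound by PU.1, the transcription factor that specifies macrophages, and both motifs share AGGAA.
C1qb: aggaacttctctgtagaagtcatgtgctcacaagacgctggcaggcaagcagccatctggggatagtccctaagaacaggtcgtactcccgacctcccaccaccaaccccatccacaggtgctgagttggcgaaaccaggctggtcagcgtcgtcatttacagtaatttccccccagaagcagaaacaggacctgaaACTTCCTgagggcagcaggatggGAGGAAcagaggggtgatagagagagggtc
C1qc: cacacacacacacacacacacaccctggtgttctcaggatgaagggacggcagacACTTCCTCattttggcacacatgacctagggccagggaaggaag
Trem2: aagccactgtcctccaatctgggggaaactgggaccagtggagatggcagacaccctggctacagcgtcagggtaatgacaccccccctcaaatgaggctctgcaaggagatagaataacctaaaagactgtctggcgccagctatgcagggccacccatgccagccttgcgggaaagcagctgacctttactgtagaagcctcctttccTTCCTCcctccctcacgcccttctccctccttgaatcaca
C3: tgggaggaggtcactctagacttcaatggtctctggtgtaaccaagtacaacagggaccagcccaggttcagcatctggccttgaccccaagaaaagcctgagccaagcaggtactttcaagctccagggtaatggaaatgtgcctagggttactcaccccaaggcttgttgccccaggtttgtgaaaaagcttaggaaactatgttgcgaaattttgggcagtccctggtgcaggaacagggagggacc
In the 250 bases before the start site, GAGGAA occurred in 23.3% of 32851 promoters and in those of C1qb, C1qc and Trem2 among the 6 genes. AGGAAGT occurred in 7.69% of promoters and in those of C1qb, C1qc and P2ry12. Neither motif occurred in the printed window of C3 or in that of Cx3cr1, which is not printed. Over the 12 libraries Cx3cr1 had a Pearson's r of 0.533 with C1qb, 0.75 with C1qc and 0.841 with Trem2. These are matches of letters and no binding was measured.

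The 3 chains of C1q are encoded side by side on chromosome 4. C1qa (ENSMUSG00000036887) spans 136895917 to 136898803, C1qc (ENSMUSG00000036896) 136889804 to 136893065 and C1qb (ENSMUSG00000036905) 136880129 to 136886187, all on the minus strand of GRCm38. C1qa had 793, 692 and 975 normalized counts in the P25-KO libraries and 807, 1118 and 821 in the P25-WT libraries (replicates 1, 2 and 3 here and for the genes that follow). At P60 it had 718, 696 and 698 in KO and 707, 759 and 633 in WT mice. The P25 libraries were spread widely, with P25-WT replicate 2 the highest of all 12, whereas the P60 libraries lay close together near the lower end of the P25 range. C1qb had 910, 827 and 1086 normalized counts in P25-KO, 984, 1294 and 988 in P25-WT, 955, 806 and 938 in P60-KO, and 901, 842 and 832 in P60-WT libraries. Its highest value was again in P25-WT replicate 2, and KO and WT libraries overlapped at both ages. C1qc had 847, 791 and 990 in P25-KO, 819, 967 and 959 in P25-WT, 744, 738 and 750 in P60-KO, and 806, 774 and 710 in P60-WT libraries. Only P60-WT replicate 1 reached the range of the P25 libraries, which began at 791.

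C3 (ENSMUSG00000024164, chromosome 17, 57203970 to 57228136, minus strand), the central component that C1q activation leads to, was low and variable. It had 53.0, 27.9 and 25.5 normalized counts in P25-KO, 13.5, 19.4 and 53.8 in P25-WT, 22.8, 22.8 and 31.8 in P60-KO, and 36.4, 31.8 and 28.8 in P60-WT libraries. The highest and the lowest C3 values both came from P25-WT mice. The coefficient of variation of C3 was 53.4% over the 6 P25 libraries and 18.7% over the 6 P60 libraries.

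Cx3cr1 and P2ry12 are the receptors that tie microglia to neurons. Cx3cr1 (ENSMUSG00000052336, chromosome 9, 119901616 to 120069879), the receptor for the neuronal chemokine fractalkine, had 929, 1004 and 1009 normalized counts in P25-KO, 981, 1206 and 1242 in P25-WT, 937, 913 and 834 in P60-KO, and 1067, 1065 and 794 in P60-WT libraries. Its annotated span overlaps 9 other genes, including Wdr48 and Gorasp1, and whether the authors' quantification used strand is not stated. P2ry12 (ENSMUSG00000036353, chromosome 3, 59216272 to 59262871), which steers microglial processes toward ADP and ATP, had 647, 601 and 749 in P25-KO, 632, 924 and 849 in P25-WT, 742, 671 and 568 in P60-KO, and 858, 710 and 577 in P60-WT libraries. It lies on the strand opposite to Med12l, whose span overlaps it, so the same limit holds. For both receptors the ranges of the ages, and of the genotypes within each age, overlapped.

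Tmem119 (ENSMUSG00000054675, chromosome 5, 113793729 to 113800516), a microglial surface marker, had 539, 454 and 660 normalized counts in P25-KO, 559, 546 and 522 in P25-WT, 453, 448 and 423 in P60-KO, and 557, 436 and 425 in P60-WT libraries. Apart from P60-WT replicate 1, every P60 library lay below every P25 library. Csf1r (ENSMUSG00000024621, chromosome 18, 61100598 to 61132149), the growth factor receptor that microglia need to survive, had 2319, 2080 and 2440 in P25-KO, 2249, 1885 and 2884 in P25-WT, 2060, 1963 and 1885 in P60-KO, and 2596, 2444 and 1946 in P60-WT libraries. P25-WT replicate 2, which was highest for the C1q chains apart from C1qc, was the lowest P25 library for Csf1r.

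Trem2 (ENSMUSG00000023992, chromosome 17, 48346401 to 48354147) had 298, 292 and 328 normalized counts in P25-KO, 269, 442 and 390 in P25-WT, 277, 230 and 225 in P60-KO, and 246, 285 and 219 in P60-WT libraries. The ages overlapped only between 269 and 285, where 1 P25 and 2 P60 libraries lay. Its partner Tyrobp (ENSMUSG00000030579, chromosome 7, 30413760 to 30417585) had 239, 212 and 316 in P25-KO, 231, 401 and 224 in P25-WT, 189, 190 and 175 in P60-KO, and 213, 195 and 202 in P60-WT libraries. The ages overlapped by 1 library on each side, P25-KO replicate 2 with 212 and P60-WT replicate 1 with 213. At P60 all KO libraries were below all WT libraries for Tyrobp.

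**Figure D1:**
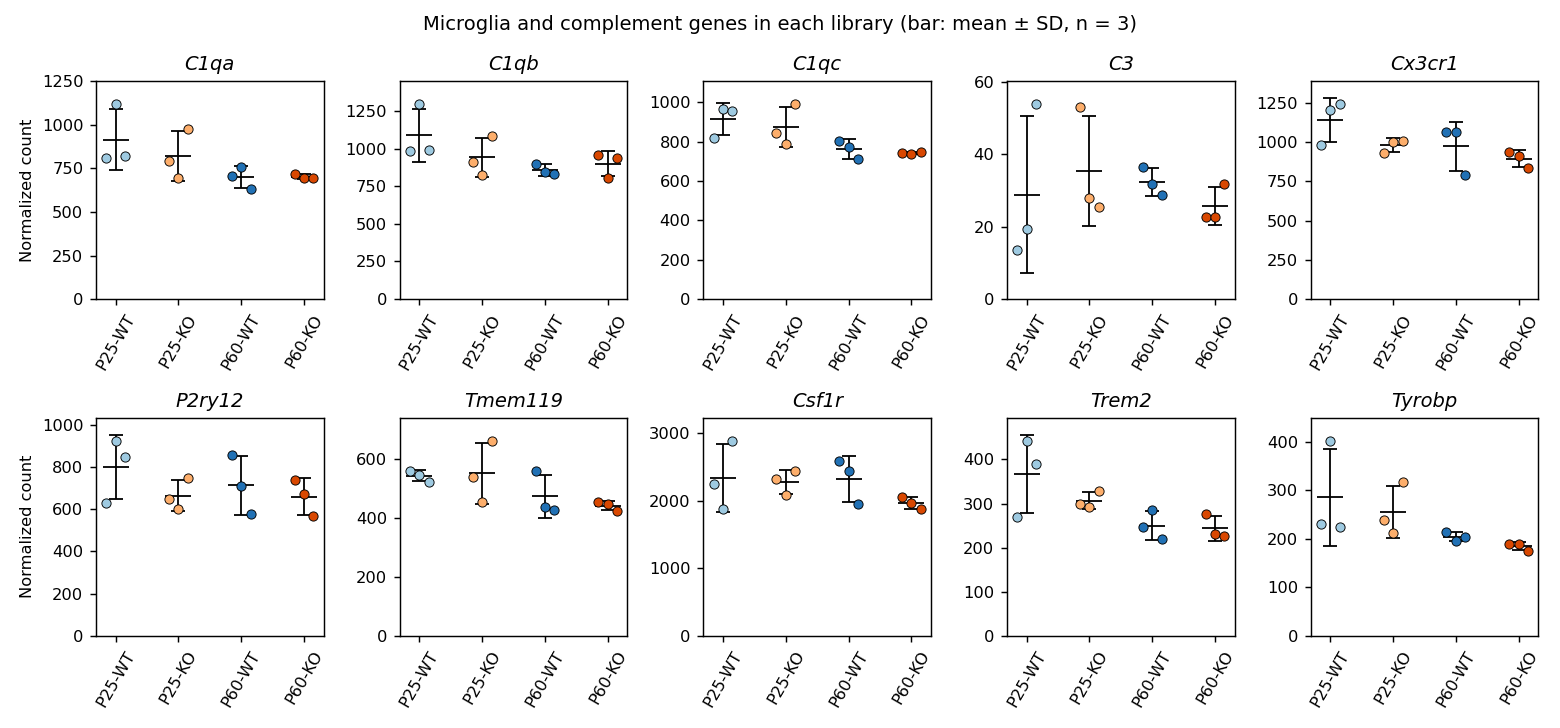
Normalized counts (vertical axis, from 0) of the 10 genes in each library of the 4 groups, with points for single libraries and bars for the mean ± SD of 3 libraries. The P60 points of C1qa lie between 633 and 759 and those of Tyrobp between 175 and 213, closer together than the P25 points, while C3 stays below 54 and scatters most among P25-WT libraries.

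The deposited values rose with exon length across protein-coding genes (Spearman's rho = 0.338, over 15047 genes), as read counts do, so levels of different genes were compared only after division by the length of the principal transcript. Before that division Csf1r had the highest mean of the 10 genes (2229 normalized counts), followed by Cx3cr1 (998) and C1qb (947). Per kilobase the C1q chains led. C1qb had 870 ± 125 normalized counts per kilobase (SD, n = 12), C1qa 755 ± 132 and C1qc 685 ± 80.4. Csf1r followed with 474 ± 67.3, then Tyrobp with 412 ± 114, P2ry12 with 303 ± 49.99 and Trem2 with 268 ± 61.8. Tmem119 with 224 ± 32.7 and Cx3cr1 with 222 ± 29.8 could not be ordered, since Tmem119 was the higher in 6 of 12 libraries. The other neighbours kept their order in 10 to 12 of the 12 libraries although their ranges overlapped. C3 stood alone at 5.96 ± 2.39 per kilobase, below all others in every library.

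The comparison of KO with WT mice asked whether disruption of Shank3 changed these transcripts. At P25, 8 of the 10 genes had a lower fitted level in KO mice, and the median log2 fold change of the 10 was -0.14, against -0.00819 over all 17515 genes tested. P25-WT replicate 2, the library that stood apart, was above the mean of its age for 8 of the 10. Without it only Tyrobp changed sign, from -0.12 to 0.15. None of the 10 genes passed the test (limma with Benjamini-Hochberg adjustment over all genes, adjusted p-values of 1 at P25), and none had an unadjusted p under 0.05, as 238 genes did. The share of all genes called was 0.00571% (Shank3 alone). KO and WT libraries overlapped for all 10 genes, where 4.76% of all genes did not overlap. The closest to a difference was Cx3cr1, with 0.862 times the WT level (95% interval 0.730 to 1.02). The intervals of C1qa (0.698 to 1.15 times the WT level), C1qb (0.697 to 1.08) and C1qc (0.801 to 1.14) all included no change. For C3 the interval ran from 0.630 to 2.96 times the WT level, so that a change in either direction was not detectable. No marker of another cell type was called at P25. The median log2 fold change was -0.135 for 10 oligodendrocyte markers, all lower in KO mice, -0.144 for 7 border macrophage markers, -0.0696 for 8 choroid plexus markers, 0.192 for 5 red blood cell markers, all higher, and between -0.0242 and 0.00533 for astrocytes, endothelium, meningeal fibroblasts and neurons. The part of these cells in the values of the 10 genes was not tested.

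At P60, 8 of the 10 genes again had a lower fitted level in KO mice, with a median log2 fold change of -0.10 against 0.000128 over all 17610 genes. None passed the test (limma, adjusted p-values of 1.0), where 0.00568% of all genes were called. Csf1r was the only one of the 10 with an unadjusted p under 0.05 (log2 fold change -0.23 ± 0.10, SE; 0.852 times the WT level, 95% interval 0.730 to 0.994), as 440 of all genes had. Its adjusted p was 1.0 (limma). Tyrobp, at 184.5 ± 8.64 normalized counts in P60-KO and 203.5 ± 9.24 in P60-WT libraries (SD, n = 3), was the only one whose genotypes did not overlap, where 7.79% of all genes did not. C1qa was at 1.01 times the WT level (0.887 to 1.15), C1qb at 1.05 (0.920 to 1.19) and C1qc at 0.976 (0.871 to 1.09), narrower intervals than at P25. C3 was at 0.798 times the WT level (0.538 to 1.18). Among the markers of other cells at P60, none called, the median log2 fold change was -0.168 for 10 endothelial markers, all lower in KO mice, -0.142 for 7 border macrophage markers, -0.0704 for 8 markers of meningeal fibroblasts, 0.16 for 5 red blood cell markers, all higher, and 0.0373 for 10 oligodendrocyte markers, all higher. It was between 0.00337 and 0.0361 for neurons, choroid plexus and astrocytes, and the part of these cells was likewise not tested.

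With both ages fitted together, 9 of the 10 genes were lower in KO mice, C3 being the exception, and the median log2 fold change was -0.10 against -0.00429 over 17594 genes. None of the 10 was called (limma, adjusted p-values of 1), and none had an unadjusted p under 0.05, as 361 genes did, where 0.00568% of all genes were called at the adjusted threshold. The genotype by age interaction, which tests whether the KO difference changed with age, was called for 0.0% of all genes (limma, 288 genes at an unadjusted p under 0.05 and none of the 10). Its estimates ran from -0.78 ± 0.59 on the log2 scale (SE) for C3 to 0.27 ± 0.17 for C1qb. The 12 libraries thus held no called effect of the mutation on these genes, and the intervals above give the sizes that could not be told from none. Genes of the complement and microglial lists described below were also not called in any genotype comparison.

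The comparison of P60 with P25 asked how the transcripts differ between juvenile and adult forebrain. Over both genotypes, 5 of the 10 genes were lower at P60 and none was higher (limma, adjusted p under 0.05), where 19.3% of all genes were lower, 18.3% were higher and 37.6% were called in all. The genes that fell were the receptor Trem2 and its adaptor Tyrobp, the C1q chains C1qa and C1qc, and Tmem119. The fitted change was negative for 9 of the 10, with a median log2 fold change of -0.22 against 0.00371 over 17594 genes. No gene of the 10 had ages that did not overlap, where 19.6% of all genes did. In bulk tissue, fewer microglia and less RNA of these genes per cell cannot be told apart.

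Trem2 fell by 25.7%, from 336 ± 66.3 normalized counts at P25 (SD, n = 6) to 247 ± 27.8 at P60 (SD, n = 6), a log2 fold change of -0.43 ± 0.12 (SE, adjusted p = 0.00937, limma). Tyrobp fell by 26.3%, from 270 ± 73.8 to 194 ± 13.1 (log2 fold change -0.44 ± 0.13, adjusted p = 0.0188, limma). The point estimates of the receptor and its adaptor were close. C1qc fell by 15.6%, from 895 ± 86.2 to 754 ± 33.1 (-0.24 ± 0.07, adjusted p = 0.00901, limma), and C1qa fell by 18.3%, from 868 ± 153 to 702 ± 40.9 (-0.29 ± 0.10, adjusted p = 0.0264, limma). C1qb, the remaining chain, had 1015 ± 162 at P25 and 879 ± 61.0 at P60 and was not called (-0.20 ± 0.09, adjusted p = 0.0992, limma). Tmem119 fell by 16.2%, from 547 ± 66.8 to 457 ± 50.5 (-0.26 ± 0.09, adjusted p = 0.0366, limma).

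The receptors Cx3cr1 (-0.18 ± 0.08, adjusted p = 0.0898), P2ry12 (-0.09 ± 0.11, adjusted p = 0.558) and Csf1r (-0.10 ± 0.10, adjusted p = 0.432) were not called (limma, log2 fold changes with SE). Their 95% intervals ran from 0.781 to 0.993 times the P25 level for Cx3cr1, from 0.795 to 1.11 for P2ry12 and from 0.808 to 1.08 for Csf1r. For C3, with 32.2 ± 17.2 normalized counts at P25 and 29.1 ± 5.44 at P60, the interval was 0.641 to 1.57 times the P25 level. Whether the genes that fell differ in their change from those not called was not tested.

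The calls differed in how much they rested on single libraries. Trem2 (adjusted p from 0.00261 to 0.0261) and C1qc (0.00559 to 0.0271) were called under all 18 alternatives (limma), and Tyrobp was lost without P25-KO replicate 3 only (adjusted p = 0.0506, limma). C1qa was lost without P25-KO replicate 3 (adjusted p = 0.0695), without P60-WT replicate 3 (0.0678) and when each library's trend on transcript length was removed (0.0546). Tmem119 was kept in 7 of the 18 alternatives only, and was not called when libraries were scaled to the same total (adjusted p = 0.0734, limma). Leaving out P25-KO replicate 3 left 2 called genes, Trem2 and C1qc, and leaving out P60-WT replicate 3 left 3, Trem2, Tyrobp and C1qc. Leaving out P25-WT replicate 2, the library that stood apart, left the same 5 genes called. C1qb was called without P25-KO replicate 2 (adjusted p = 0.0367) and Cx3cr1 without P25-WT replicate 1 (adjusted p = 0.0477, limma).

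Within single genotypes none of the 10 genes passed the test. In WT mice 8 of the 10 were lower at P60, with a median log2 fold change of -0.25, and 4 had an unadjusted p under 0.05 (limma, lowest adjusted p = 0.109 for Trem2), where 8.65% of all genes were called. In KO mice all 10 were lower, with a median of -0.22, and 5 had an unadjusted p under 0.05 (limma, lowest adjusted p = 0.0563 for Tyrobp), where 20.7% were called. Trem2 had a log2 fold change of -0.53 ± 0.19 in WT and -0.33 ± 0.11 in KO mice (SE), and Tyrobp of -0.43 ± 0.21 and -0.45 ± 0.15. C1qb was at -0.33 ± 0.12 in WT and -0.06 ± 0.11 in KO mice, and the interaction given above tests that difference. Leaving out P25-KO replicate 2 brought 3 genes past the threshold in KO mice, Tyrobp (adjusted p = 0.0320), Csf1r (0.0296) and Tmem119 (0.0304, limma). Without P60-KO replicate 1, Trem2 passed it (0.0459), and with each library's length trend removed Csf1r did (0.0495, limma).

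**Figure D2:**
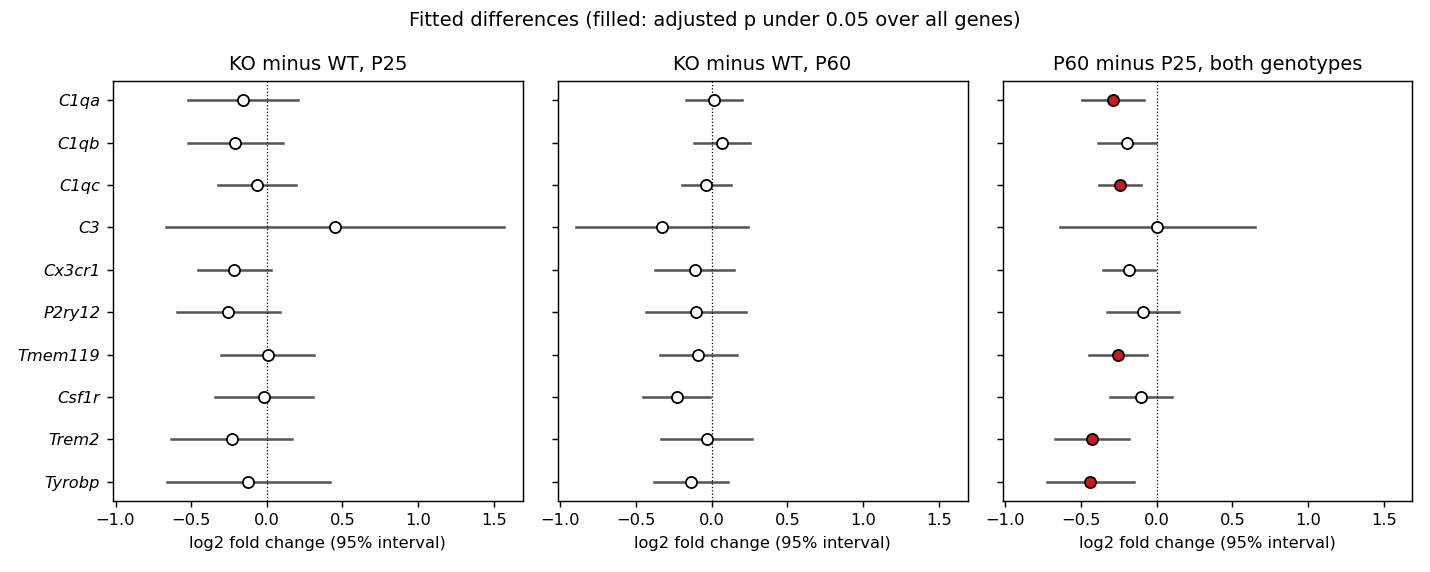
Fitted log2 fold changes of the 10 genes (points) with 95% intervals (lines) for KO minus WT at P25, KO minus WT at P60 and P60 minus P25 over both genotypes, with filled points for an adjusted p under 0.05. No point is filled in the genotype panels, whereas Trem2, Tyrobp, C1qa, C1qc and Tmem119 are filled in the age panel, all to the left of 0.

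Transcripts of other cells also differed between the ages. The summed red blood cell markers (5 of 5 genes, none at 0) were 20500 to 42980 normalized counts at P25 and 5894 to 7305 at P60, and the summed oligodendrocyte markers (10 of 10, none at 0) were 401800 to 520500 and 195700 to 223500. The summed border macrophage markers (8 of 8, none at 0) were 702 to 1259 at P25 and 624 to 966 at P60, and 0 of the 7 tested were called (limma, 1 at an unadjusted p under 0.05). The summed microglial markers were 8587 to 10980 at P25 and 8109 to 10630 at P60, with 3 of 12 called lower and 1 higher. Over all genes 19.3% were called lower, 18.3% higher and 37.6% in all. The part of these other cells in the age difference of the 10 genes was not tested.

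The spread between libraries was itself wider at P25 for several of the genes. The coefficient of variation over 6 libraries was 27.3% at P25 and 6.75% at P60 for Tyrobp, 17.6% and 5.83% for C1qa, and 16.0% and 6.93% for C1qb. Without P25-WT replicate 2 the P25 value was 16.8% for Tyrobp, 12.4% for C1qa and 10.1% for C1qb, still above that at P60. For Cx3cr1 it was 12.2% at both ages. P25-KO replicate 2 was below the mean of the 6 P25 libraries for all 10 genes, and P25-WT replicate 2 was above it for 8. At P60, KO replicate 2 was below the age mean for all 10 genes and WT replicate 1 above it for 9. Libraries of one genotype thus differed among themselves in the same direction across most of the genes.

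**Figure D3:**
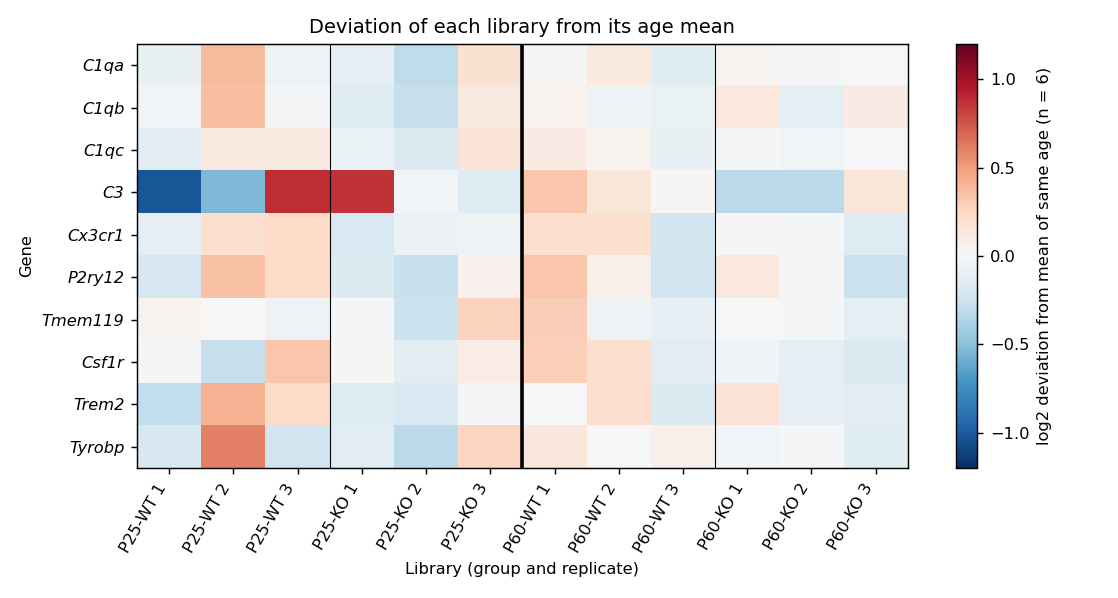
Log2 deviation of each library (columns) from the mean of the 6 libraries of its age for the 10 genes (rows), red above and blue below that mean, with a thick line between the ages. P25-WT replicate 2 is red for 8 genes and blue for Csf1r, P25-KO replicate 2 is blue for all 10, and C3 has the deepest colours of all, in P25-WT replicates 1 and 3 and P25-KO replicate 1.

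Across the 12 libraries, most pairs of the 9 genes other than C3 were positively correlated, and the lowest correlations were those of Csf1r with C1qb, Tyrobp and C1qa. Of the 36 pairs 35 had a positive Pearson's r, with a median of 0.657, a lowest value of -0.01 (C1qb and Csf1r) and a highest of 0.925 (C1qa and Tyrobp). C1qa and C1qb had an r of 0.909, C1qa and C1qc of 0.884, and Trem2 and Tyrobp of 0.780. The 9 pairs of C3 had a median of 0.083, and 5 were positive. On deviations from the 4 group means, which remove age and genotype, the median was 0.574 for the 36 pairs, of which 33 were positive and the lowest was -0.37 (Csf1r and Tyrobp), and 0.219 for those of C3. Over the 12 libraries Csf1r had r of 0.133 with C1qa and 0.028 with Tyrobp, whereas Cx3cr1 had 0.655 and 0.550. These values describe 12 libraries that share their normalization.

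A score for microglia, the mean log2 deviation of those 9 genes from their mean over all libraries, was highest in P25-WT replicate 2 (0.36) and lowest in P60-WT replicate 3 (-0.25). P25-WT replicate 2 is the library that stood apart on transcript length (rho -0.349), and the score and correlations were not recomputed with length trends removed. The genes most like it over the 12 libraries were Fcrls (Pearson's r = 0.961), Spsb3 (0.941), Tcn2 (0.925), AI413582 (0.925) and Maf1 (0.922). On deviations from the group means they included Rlbp1 (0.927), Gpr34 (0.927), Fcrls (0.924) and Siva1 (0.922). Fcrls and Gpr34 are microglial receptors. The genes most like C3 were Rgs22 (0.843), Pnpla3 (0.783), Sec24b (0.781), Gopc (0.764) and Gm19744 (0.756), and on deviations Rgs22 (0.907), Gm19744 (0.903), BC039966 (0.892), Gm20628 (0.889) and Gm36445 (0.887). No other gene of complement or microglia was among those most like C3.

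Of 8 tested genes of classical and lectin initiation, which act around C1q and C3, 2 were higher and 1 was lower at P60 (limma), a share near the 37.6% of all genes called, with a median log2 fold change of 0.32. C4b, the component that C1 cleaves before C3, rose from 574 ± 92.7 to 849 ± 83.7 normalized counts (SD, n = 6; log2 fold change 0.57 ± 0.10, adjusted p = 0.000404, limma). C4a rose from 70.4 ± 25.01 to 110 ± 27.7 (0.68 ± 0.24, adjusted p = 0.0385), but C4a and C4b are near-identical neighbours whose reads may be split between them, so both values are uncertain. Masp1, a protease of the lectin pathway, fell from 563 ± 55.3 to 360 ± 22.2 (-0.64 ± 0.07, adjusted p = 1.86e-05, limma). The C1 proteases C1ra (0.35 ± 0.15, adjusted p = 0.0803) and C1s1 (0.30 ± 0.29, adjusted p = 0.446), named after their values were seen, were not called. Of 4 tested genes of the alternative and terminal pathway none was called (limma, 2 at an unadjusted p under 0.05).

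Of 9 tested complement receptors 2 were called, a smaller share than the 37.6% of all genes. Of these, 1 was higher, Megf10, an engulfment receptor of astrocytes that binds C1q (700 ± 90.1 to 972 ± 28.2 normalized counts, log2 fold change 0.48 ± 0.08, adjusted p = 0.000316), and the other was lower, Lrp1 (-0.27 ± 0.06, adjusted p = 0.00486, limma). The integrin chains of complement receptor CR3, which takes up synapses tagged with C3 fragments, were not called (Itgam -0.10 ± 0.08 and Itgb2 0.07 ± 0.14, SE), and were named after their values were seen. Of 19 tested regulators 5 were higher and 4 lower, where 18.3% and 19.3% of all genes were. The neuronal genes Nptx1 (0.38 ± 0.06, adjusted p = 0.000364) and Csmd3 (0.44 ± 0.09, adjusted p = 0.00134, limma) rose. Clu, the inhibitor of the terminal complex also called clusterin, fell (-0.28 ± 0.04, adjusted p = 6.25e-05, limma), as did the sushi-domain proteins Sez6 (-0.20 ± 0.04) and Susd4 (-0.12 ± 0.04).

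Other microglial genes did not all follow the C1q chains and Trem2. Of 44 homeostatic genes, 6 were lower and 5 higher at P60, with a median log2 fold change of -0.06. P2ry13, a purine receptor beside P2ry12, rose from 179 ± 30.0 to 237 ± 29.4 normalized counts (0.41 ± 0.11, adjusted p = 0.0127, limma), and Dock8 (0.47 ± 0.14) and the prostaglandin synthase Hpgds (0.49 ± 0.14) rose too. The lysosomal genes Lgmn (-0.35 ± 0.04, adjusted p = 1.61e-05) and Cd68 (-0.49 ± 0.11, adjusted p = 0.00262) fell, as did the purine receptor P2ry6 (-0.56 ± 0.13, adjusted p = 0.00420, limma). Fcrls, the gene most like the score, fell from 630 ± 91.9 to 501 ± 46.5 (-0.32 ± 0.09, adjusted p = 0.0144, limma). Gpr34, at 0.04 ± 0.13 (adjusted p = 0.819, limma), was not called. The lists were chosen with earlier results of these data known. Of all genes 37.6% were called, 19.3% lower and 18.3% higher, and each count is to be read beside these shares.

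Among 17 tested genes of the disease-associated state, a Trem2-dependent programme of microglia, 8 were lower and 1 was higher at P60. Their median log2 fold change was -0.18, and over all genes 19.3% were lower and 18.3% higher. Cd9 fell from 1604 ± 342 to 942 ± 43.4 normalized counts (-0.74 ± 0.10, adjusted p = 9.34e-05), Apoe from 45620 ± 6695 to 31530 ± 1580 (-0.52 ± 0.08, adjusted p = 0.000173) and Lpl from 624 ± 27.8 to 516 ± 37.2 (-0.28 ± 0.06, adjusted p = 0.00294, limma). Spp1, osteopontin, rose from 425 ± 102 to 644 ± 110 (0.62 ± 0.16, adjusted p = 0.00738, limma). Apoe is also a major product of astrocytes, and Cd9 is also made by oligodendrocytes. The summed astrocyte markers (10 of 10, none at 0) were 140300 to 157000 at P25 and 118700 to 131800 at P60, and their part in these changes was not tested.

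Of 21 genes of signalling below Trem2 and Tyrobp, 3 were higher and 4 lower, no larger a share than the 18.3% and 19.3% of all genes. Grb2 (0.26 ± 0.06, adjusted p = 0.00247), Pik3cd (0.16 ± 0.05, adjusted p = 0.0327) and Vav3 (0.27 ± 0.10, adjusted p = 0.0410) rose, and Ctnnb1 (-0.32 ± 0.03, adjusted p = 1.29e-05), Itpr2 (-0.36 ± 0.07, adjusted p = 0.00111) and Pik3r1 (-0.19 ± 0.05, adjusted p = 0.00951, limma) fell. The kinase Syk, which Tyrobp recruits, was at -0.04 ± 0.09 (adjusted p = 0.766, limma) and was named after its value was seen. Most of these signalling genes are used by many cell types.

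Of 14 tested ligands and survival factors of microglia, not all of them ligands of the 10 genes, 6 were lower and none was higher at P60. Their median log2 fold change was -0.19, and over all genes 19.3% were lower, 18.3% higher and 37.6% called in all. Clu and Apoe, lipoprotein ligands of Trem2, are given above, and Cd47, the signal that protects cells from engulfment, fell from 4937 ± 126 to 4162 ± 221 normalized counts (-0.25 ± 0.04, adjusted p = 0.000425, limma). Cx3cl1, the fractalkine that Cx3cr1 binds, was at -0.29 ± 0.06 (adjusted p = 0.00101), and Il34, a neuronal ligand of Csf1r, at -0.27 ± 0.06 (adjusted p = 0.00401, limma). Both passed the test while their receptors did not, and whether ligand and receptor differ in their change was not tested. Csf1, the other ligand of Csf1r, was not called (-0.11 ± 0.06, adjusted p = 0.162, limma). These 3 ligands were named after their values were seen.

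**Figure D4:**
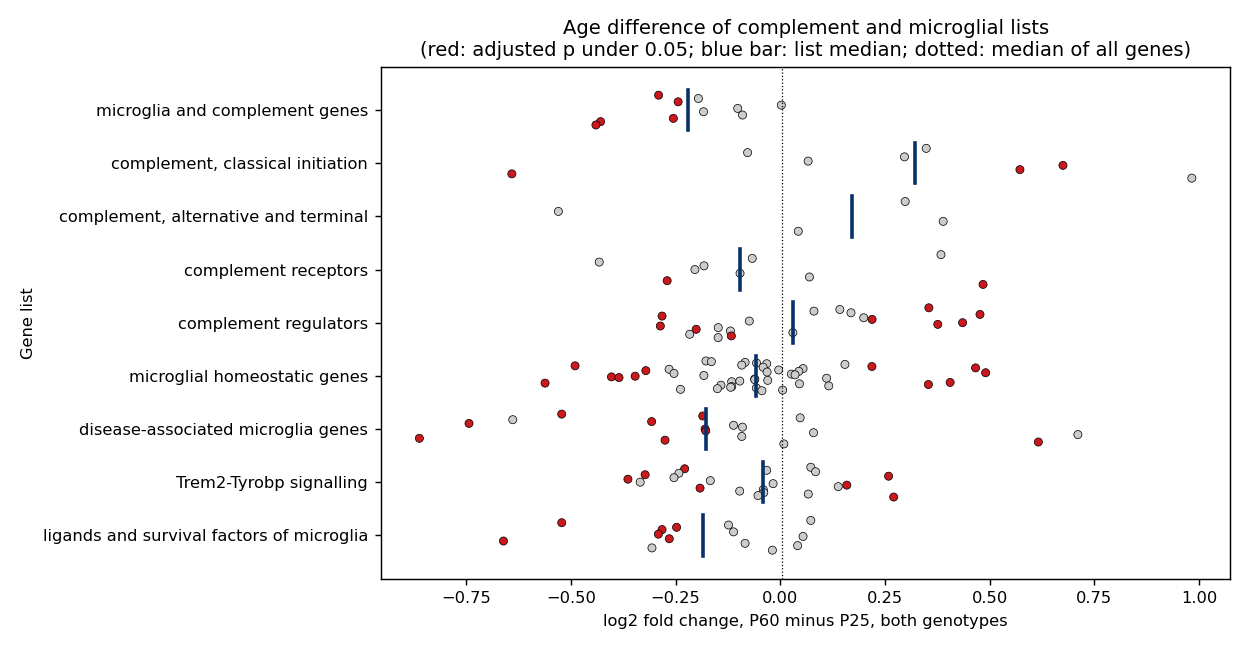
Log2 fold changes from P25 to P60 over both genotypes (horizontal axis) for each gene (points) of the 10 genes and of 8 lists (rows), red where the adjusted p was under 0.05, with a blue bar at each list median and a dotted line at the median of all genes. The 5 red points in the row of the 10 genes all lie left of the dotted line, the ligands also have red points on the left only, and the classical initiation, regulator and homeostatic lists have red points on both sides.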

How the data were processed

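RNA of 12 forebrain libraries, 3 in each of 4 groups named by the sample titles, was sequenced after TruSeq v2 preparation. According to the study, the authors estimated transcript abundance with Salmon 1.1.0 (GC bias correction, GRCm38 per the labels) and normalized the imported estimates with DESeq2. The submitters' processing notes name DESeq2 1.26.0 and R 3.6.2. The deposited values are signal on a count scale and are not whole reads, so no count model was fitted. The depth behind each value is unknown, and the number of mice, 3 in a group, sets the precision. The reference transcriptome is not given in the sources used here. Symbols came from GENCODE M21 (19252 of 19268 identifiers).

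Genes with a mean of at least 10 were tested with limma 3.58.1 in R 4.3.3 (intensity trend) on log2(value + 1), with Benjamini-Hochberg adjustment over all of them and a threshold of 0.05. Fold changes are on that scale and understate those of low genes. P-values measure the spread between these mice. Age over both genotypes and the interaction used all 12 libraries, and the other comparisons used their own groups. The 10 genes and all lists were chosen with earlier results of these data known. Named beside the 10 were Shank3, up to 3 genes per direction and list with the smallest adjusted p under 0.05 over both genotypes or both ages, and the 5 genes most like the microglial score and C3. Some genes that this rule names are not reported here. Of the 31-base words in transcripts of the 10 genes, 1.75% in Cx3cr1, 0.38% in Csf1r and none in the others occurred in another gene. Words were compared on the transcript strand only, so overlap with transcripts of the opposite strand was not covered. Alternatives changed the pseudocount, filter, scaling, variance trend, libraries in the fit or replicate block, or left out 1 library. Removal of each library's trend on exon length (spline, 5 degrees of freedom), and the spread at P25 without P25-WT replicate 2, were chosen after seeing the data. The procedure was tested on simulated data. Python 3.11.15, pandas 2.3.3 and matplotlib 3.10.9 were used for counts and plots.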

Additional observations from a re-analysis of the deposited data

How the results depend on the processing

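Called genes over the whole table, main count first, were 1 for KO against WT at P25 (0 without a variance trend, with the replicate block and with the length trend removed, 0 to 8 leaving out 1 library), 1 at P60 (0 without a variance trend, 1 to 3 leaving out 1 library), 1521 for age in WT mice (192 without a variance trend, 3442 with all 12 libraries in one fit, 122 to 2403 leaving out 1 library), 3641 for age in KO mice (1725 without a variance trend, 2093 to 3230 leaving out 1 library) and 0 for the interaction (0 to 1 leaving out 1 library). Of the 10 genes, 5 were called for age over both genotypes (3 with the length trend removed, 2 to 6 leaving out 1 library), 0 in WT mice (1 with all 12 libraries in one fit, Trem2) and 0 in KO mice (1 with the length trend removed, 0 to 3 leaving out 1 library). The cause of these moves was not tested.

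Of 916 values of single genes under an alternative, 847 kept direction and side of the threshold, 15 lost and 8 gained the call, and 46 changed sign. None of those that changed sign was called. Leaving out 1 library, the log2 fold change at P25 (KO minus WT) ran from -0.16 to 0.0050 for C1qc, -0.16 to 0.14 for Csf1r, -0.29 to 0.15 for Tyrobp and -0.13 to 0.14 for Tmem119. At P60 it ran from -0.058 to 0.073 for C1qa, -0.13 to 0.065 for Trem2, -0.087 to 0.0043 for C1qc, -0.25 to 0.036 for P2ry12 and -0.16 to 0.035 for Tmem119. Over both ages it ran from -0.16 to 0.27 for C3, -0.11 to 0.019 for Tmem119, -0.12 to 0.0051 for C1qa and -0.11 to 0.0020 for C1qb. For P60 minus P25 it ran in WT mice from -0.14 to 0.17 for Csf1r and -0.011 to 0.95 for C3, in KO mice from -0.10 to 0.090 for P2ry12 and -0.15 to 0.048 for C1qb, and over both genotypes from -0.22 to 0.21 for C3. With the length trend removed, the sign changed for C1qa between genotypes at P60 (-0.027) and for age in Csf1r in WT mice (-0.023), P2ry12 (0.0046) and C1qb (0.012) in KO mice and C3 over both genotypes (-0.0059). It also changed for P2ry12 in KO mice with libraries scaled to the same total (0.020) and for C3 over both genotypes with a pseudocount of 10 (-0.024).

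Same-numbered libraries were not paired, since the correlation of their deviations from the group means was -0.072 to 0.166 and exceeded 0.1 for every pair in no comparison. With the replicate block the counts were 0 for KO against WT at P25, 1 at P60, 1791 for age in WT and 2482 in KO mice, and 5 of the 10 genes were called for age over both genotypes. The unknown depth leaves the precision of single values, C3 above all, to the spread between 3 mice.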

Other observations

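Markers of other cell types also differed between the ages over both genotypes (limma, adjusted p under 0.05), and their values are given without explanation. Over all genes 19.3% were lower and 18.3% higher, shares that apply to every count of this section. All 10 oligodendrocyte markers were lower at P60, with a median log2 fold change of -1.26, including Cldn11 (-1.31 ± 0.04, SE) and Mag (-1.29 ± 0.05). All 5 red blood cell markers were lower, with a median of -1.99, including Hba-a1 (-2.22 ± 0.15), Hba-a2 (-1.99 ± 0.15) and Hbb-bs (-2.07 ± 0.18), which share reads among near-identical globins. Of 10 astrocyte markers 6 were lower, led by Gfap (-0.49 ± 0.06), Slc1a2 (-0.30 ± 0.05) and Gja1 (-0.28 ± 0.05). Of 10 neuronal markers 3 were higher, Snap25 (0.27 ± 0.04), Gad2 (0.20 ± 0.05) and Gad1 (0.17 ± 0.05), and 4 were lower, led by Tubb3 (-0.50 ± 0.04), Slc17a7 (-0.33 ± 0.03) and Nrgn (-0.45 ± 0.05).

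Of 8 choroid plexus markers 5 were higher, led by Kl (0.62 ± 0.08), F5 (0.86 ± 0.15) and Kcnj13 (0.67 ± 0.14), and Sostdc1 was lower (-0.34 ± 0.13). Of 8 markers of meningeal fibroblasts 4 were lower, led by Col1a1 (-1.21 ± 0.09), Col1a2 (-0.97 ± 0.08) and Igf2 (-0.83 ± 0.07), and Ptgds was higher (0.43 ± 0.08). Of 10 endothelial markers Flt1 was higher (0.38 ± 0.12) and Tie1 lower (-0.24 ± 0.09). None of 7 border macrophage markers was called (limma, 1 at an unadjusted p under 0.05), and no blood leukocyte marker had a mean high enough to be tested.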
